A study of Rattus norvegicus with 12 samples.

Results

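A set of 9 genes of the acute-phase response and the complement system was followed through 12 RNA-seq libraries of rat nucleus pulposus cells, which fill the soft core of the intervertebral disc. The genes are Lcn2, Hp, C3, Cfb, C1r, C1s, Serping1, Cd55 and Cd59, taken by symbol from a deposited table of 21071 genes, and all 9 were found and tested. The cells were grown in DMEM/F12 with 10% serum and fall into 4 groups of 3 libraries. The NPPC-Exo group received exosomes (membrane vesicles that cells release) of nucleus pulposus progenitor cells, and the miR-Exo group received exosomes from progenitors made to overexpress the microRNA miR-221-3p. The erastin+NPPC-Exo and erastin+miR-Exo groups received the same exosomes and erastin, a small molecule that inhibits the cystine transporter and so sets off ferroptosis, cell death through iron-driven lipid peroxidation. The labels give 50 µg/mL of exosomes, and 0.1 to 5 µM of erastin for 48 h with no dose for a single library. Since every group was given exosomes, there is no measure here of what they did by themselves. The titles name erastin where the count columns and sample descriptions say Model. The labels do not say if a group's libraries are separate cultures or animals. The p-values then reflect only how far these libraries differ, and that may be technical.

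Acute-phase proteins are secreted in inflammation, chiefly by the liver under IL-6 and IL-1 but also by many other cells. Lipocalin-2 (Lcn2) binds bacterial siderophores and the iron they carry, and haptoglobin (Hp) binds free haemoglobin. Complement is a chain of plasma proteases: C1r and C1s are the proteases of the first component and start the classical pathway, C3 is the central protein on which all pathways meet, and factor B (Cfb) carries the protease of the alternative pathway that amplifies C3 cleavage. The C1 inhibitor (Serping1) inactivates C1r and C1s, CD55 on the cell surface speeds the decay of the enzymes that cleave C3, and CD59 blocks assembly of the membrane attack complex. C1r, C1s and C3 are made locally by cartilage and connective tissue cells, and complement proteins have been described in degenerated discs.

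The microRNA that the progenitors of miR-Exo were made to overexpress is shown because the labels separate the kinds of exosome by it. Its mature form, read from RefSeq on GRCr8 at chrX:6023246-6023268 on the forward strand, has its seed, bases 2 to 8 from the 5′ end, in capitals. Its own level in the libraries, and sites for it in the 9 genes, are not analysed here.
rno-miR-221-3p: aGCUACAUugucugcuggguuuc
The RefSeq promoter table (GRCr8, 250 bases before to 50 bases after the annotated start) held 4 of the 9 genes under their symbol: Lcn2, C3, C1r and Cd55, all genes that rose with erastin in the results below. They are printed 5′ to 3′ on the strand of the gene. Capitals mark matches, on either strand, to short patterns for inflammatory factors: GGGANNNNCC for NF-kB, TTGCNNAA for C/EBP, TTCNNNGAA for STAT and GAAANNGAA for IRF. The patterns were chosen after the sequences had been seen.
Lcn2 (chr3:36081731-36082030, reverse strand): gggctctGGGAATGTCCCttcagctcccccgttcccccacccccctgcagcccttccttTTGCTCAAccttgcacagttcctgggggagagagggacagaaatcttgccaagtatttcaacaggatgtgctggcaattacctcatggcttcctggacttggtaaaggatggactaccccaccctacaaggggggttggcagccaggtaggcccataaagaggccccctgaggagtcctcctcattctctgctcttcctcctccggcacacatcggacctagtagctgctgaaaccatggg
C3 (chr9:2201290-2201589, reverse strand): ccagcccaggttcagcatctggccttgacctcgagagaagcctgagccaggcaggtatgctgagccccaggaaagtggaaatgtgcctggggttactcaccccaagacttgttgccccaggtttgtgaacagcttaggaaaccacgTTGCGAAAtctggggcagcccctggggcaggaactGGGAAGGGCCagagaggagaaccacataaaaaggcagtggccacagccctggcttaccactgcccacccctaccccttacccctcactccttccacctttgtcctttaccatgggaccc
C1r (chr4:159098763-159099062, forward strand): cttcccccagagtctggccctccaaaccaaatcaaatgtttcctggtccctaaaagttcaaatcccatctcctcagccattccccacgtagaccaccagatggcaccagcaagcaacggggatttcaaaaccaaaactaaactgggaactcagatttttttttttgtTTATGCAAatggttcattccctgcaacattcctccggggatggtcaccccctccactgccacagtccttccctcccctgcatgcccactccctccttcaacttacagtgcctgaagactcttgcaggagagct
Cd55 (chr13:44438052-44438351, reverse strand): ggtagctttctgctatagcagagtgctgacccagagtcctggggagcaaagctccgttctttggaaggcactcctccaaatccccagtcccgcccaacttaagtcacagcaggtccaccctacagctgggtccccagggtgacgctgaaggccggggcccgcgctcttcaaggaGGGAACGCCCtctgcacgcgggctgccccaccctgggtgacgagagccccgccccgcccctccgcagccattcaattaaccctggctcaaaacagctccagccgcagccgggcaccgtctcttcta
Counted from the start site, the Lcn2 window held the NF-kB pattern on both strands in one overlapping run from position -243, and the C/EBP pattern at -191. The C3 window held C/EBP at -104 and NF-kB at -69. The C1r window held the C/EBP pattern on the reverse strand at -83, and the Cd55 window held NF-kB at -76. None of the 4 windows held the STAT or IRF pattern. Of all 33469 promoters of the same length, 19.3% held the NF-kB pattern, 10.6% the C/EBP pattern, 8.87% the STAT pattern and 9.71% the IRF pattern, so a match is common and is only a description of these letters.

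Library totals ran from 54616827 to 68865720 counts. Levels of different genes are compared below as the deposited FPKM, which correct for transcript length and library size. Changes between groups are log2 fold changes with their standard errors from a quasi-likelihood model of the counts in edgeR, with trimmed-mean (TMM) scaling. A gene is said to rise, fall or change where its p, adjusted by Benjamini-Hochberg over the 15650 genes tested, was under 0.05. FPKM lack the TMM scaling, so a fold read off FPKM runs above the fitted one for genes that rose with erastin. Of the 10 nucleus pulposus and cartilage markers in the table (12 listed), 7 had a mean over 1 FPKM in each group, though not the same 7. Krt18 and Ca12 were below it in every group. Foxf1 was below it without erastin (0.427 with NPPC-Exo, 0.593 with miR-Exo) and above it with erastin (1.19 and 1.07). Comp was above it without erastin (1.88 and 1.08) and below it with erastin (0.750 and 0.557). The summed level of the 10 markers was 1020.67 to 1260.29 FPKM over the 6 libraries without erastin and 179.94 to 246.41 over the 6 with it. Acan carried most of that sum, with a mean of 775 FPKM in NPPC-Exo and 134 in erastin+NPPC-Exo. Of 9 of these markers tested, 2 rose and 5 fell with erastin under NPPC-Exo, and 2 rose and 6 fell under miR-Exo. Cd24 rose under both (log2 0.85 and 0.74), Foxf1 rose under NPPC-Exo (1.19) and Ca12 rose under miR-Exo (1.13). The 7 fibroblast and annulus markers in the table (8 listed) summed to 8161.43 to 9595.35 FPKM without erastin and to 2663.1 to 4769.24 with it, mostly from Col1a1 and Col3a1. Of these 7, 1 rose and 5 fell under each kind of exosome, and the one that rose was Pdgfra (log2 0.33 and 1.06). These marker sums moved with erastin, as the 9 genes did, and their part in the results was not tested. In bulk RNA, fewer cells of a type and less RNA per cell cannot be told apart. Of the cells that are best known to make or carry these proteins, hepatocyte markers (4 in the table of 9) summed to 0.87 to 1.25 FPKM in NPPC-Exo, 0.78 to 1.25 in miR-Exo, 2.07 to 2.62 in erastin+NPPC-Exo and 0.9 to 1.19 in erastin+miR-Exo. Over all libraries neutrophil markers (6 of 10) summed to 0 to 0.69 FPKM and macrophage and leukocyte markers (9 of 12) to 0.66 to 3.05. Endothelial markers (4 of 7) summed to 0.19 to 0.29 FPKM without erastin and 0.62 to 0.78 with it. Of these, Tek rose with erastin under NPPC-Exo (log2 1.32 ± 0.20, adjusted p = 0.000126) and miR-Exo (log2 0.98 ± 0.20, adjusted p = 0.00109), and Vwf passed under neither. Of the hepatocyte markers, Apoa1 rose under NPPC-Exo (log2 1.55 ± 0.50, adjusted p = 0.0218) and Cyp2e1 fell under miR-Exo (log2 -1.02 ± 0.26, adjusted p = 0.00568). Neither passed under the other kind of exosome. The macrophage sum ran from 0.66 to 0.99 in NPPC-Exo, 0.87 to 1.4 in miR-Exo, 1.19 to 2.09 in erastin+NPPC-Exo and 2.14 to 3.05 in erastin+miR-Exo, and Cd68 was the only one with a group mean over 1 FPKM, in the last group. Neutrophil markers summed to 0 in NPPC-Exo, 0.05 to 0.19 in miR-Exo, 0.02 to 0.23 in erastin+NPPC-Exo and 0.28 to 0.69 in erastin+miR-Exo. The neutrophil genes Mpo and S100a8 were at 0 counts in every library of 3 groups and held 12 and 2 counts in erastin+NPPC-Exo. Camp held 0 counts in NPPC-Exo, 5 in miR-Exo, 6 in erastin+NPPC-Exo and 50 in erastin+miR-Exo. Its change with erastin did not pass under NPPC-Exo (adjusted p = 0.209) or miR-Exo (adjusted p = 0.123). The macrophage gene Adgre1 was at 0 counts in every group but NPPC-Exo. Cd68, of the same list, rose with erastin under NPPC-Exo (log2 1.09 ± 0.37, adjusted p = 0.0302) and miR-Exo (log2 1.12 ± 0.35, adjusted p = 0.0175). Lyz2, Spi1, Mrc1 and Csf1r did not pass with erastin under either.

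**Figure D1:**
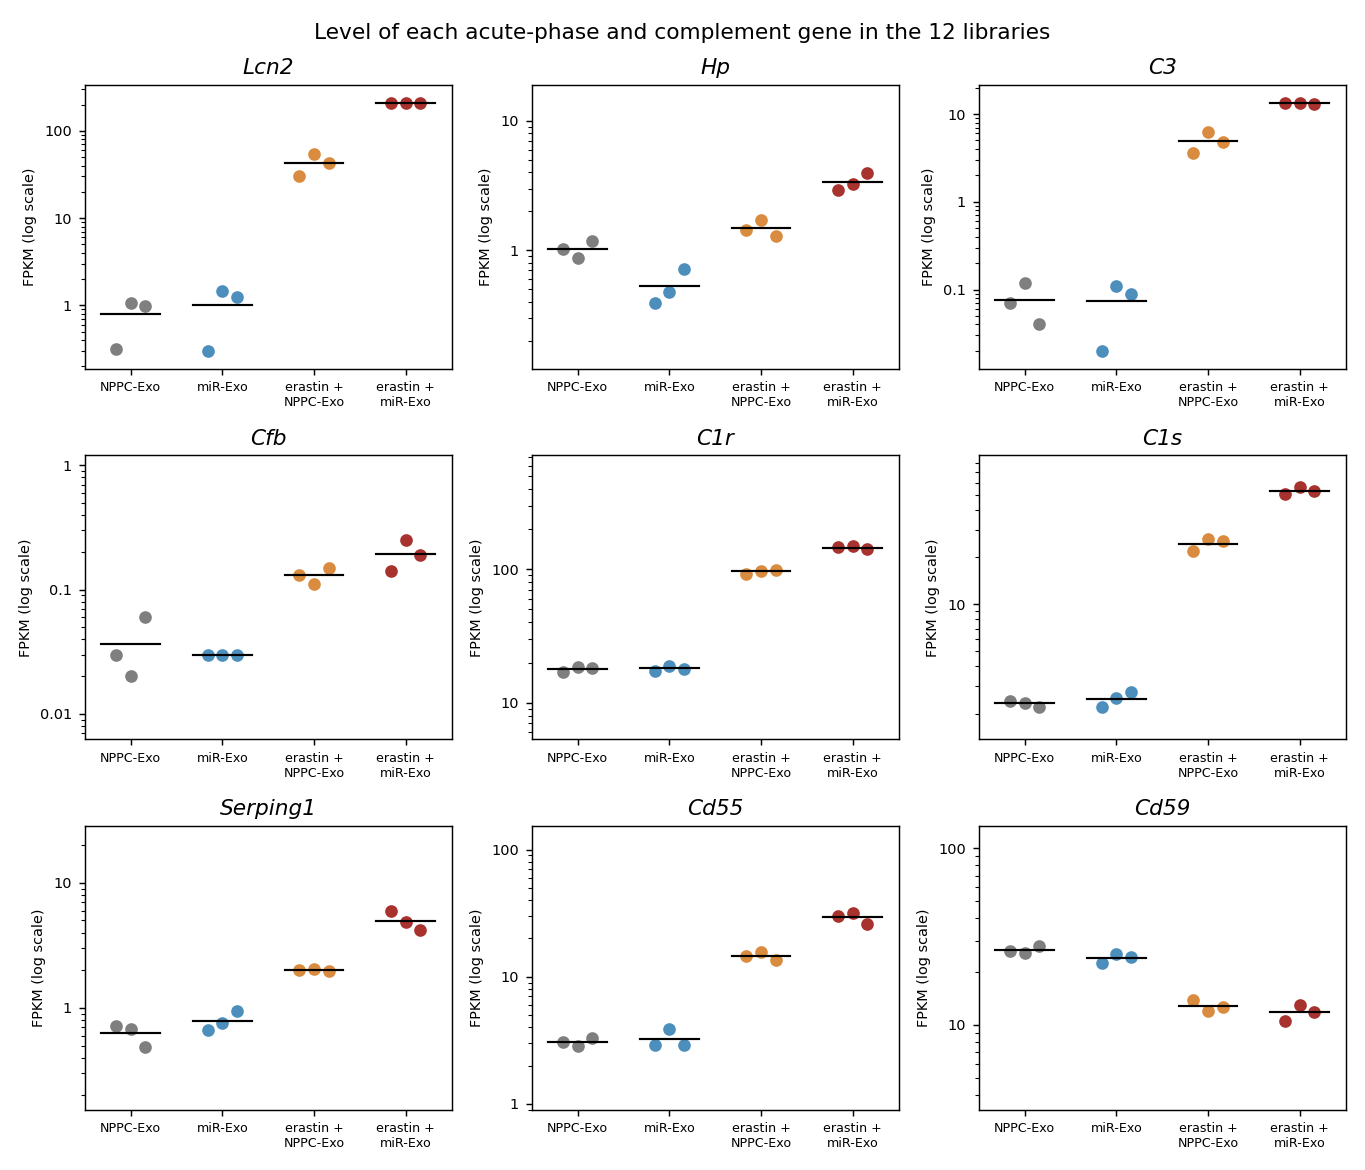
FPKM of each of the 9 genes (log axis) in the 4 groups; points are single libraries and bars are group means. In the erastin+miR-Exo libraries 8 of the genes sit higher than in either group without erastin, with Lcn2 at 206.74 to 209.59 FPKM, and Cd59 sits lower with erastin, at 10.58 to 13.81 FPKM.

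With erastin, 7 of the 9 genes rose under NPPC-Exo and 8 rose under miR-Exo, and Cd59 fell under both. These counts include Cfb, which passed the filter on low counts only through its erastin libraries and whose call under NPPC-Exo was lost in 9 settings. Without it 6 and 7 of 8 rose. Of all genes tested, 21.5% were called higher and 22.1% lower under NPPC-Exo, and 24.7% higher and 24.4% lower under miR-Exo. The median log2 change of the 9 genes was 1.96 under NPPC-Exo and 2.71 under miR-Exo (2.06 and 2.80 without Cfb), beside 0.0175 and 0.0287 over all genes tested. Between the kinds of exosome without erastin, only Hp was called, and it was lower with miR-Exo, where 4.15% of all genes were higher and 6.52% lower (1264 genes higher and 576 lower where libraries were scaled by their totals, not by TMM). Between the erastin groups, 7 of the 9 were higher with miR-Exo and none was lower, where the shares of all genes were 15.6% higher and 15.8% lower. For 6 of the 9 the erastin change was itself larger under miR-Exo than under NPPC-Exo, tested as the interaction of erastin and kind of exosome, against 5.81% of all genes called in that direction and 7.01% in the other. With 1 library left out, 4 to 6 of the 9 were called for the interaction. The interaction calls of Lcn2 and Serping1 were lost in 10 and 12 of 22 alternative settings. The medians of the 9 genes in these 3 comparisons were -0.07, 1.02 and 0.96. Over all genes the medians were 0, 0.0110 and 0.0294. These comparisons share libraries with one another, so they are not independent of each other.

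Lcn2 encodes lipocalin-2, the siderophore-binding acute-phase protein, and had the highest level of the 9 genes with erastin and miR-Exo. The NPPC-Exo libraries 1 to 3 held 20, 61 and 58 counts, and the miR-Exo libraries 18, 83 and 80. Under erastin, NPPC-Exo libraries reached 1575, 3051 and 2497 counts, and miR-Exo libraries 11502, 11483 and 10936. The groups without erastin overlapped each other, and each erastin group lay above them and apart from the other. In FPKM the mean was 0.790 ± 0.410 (SD, n = 3) with NPPC-Exo, 1.00 ± 0.618 with miR-Exo, 42.2 ± 11.5 with erastin and NPPC-Exo and 208 ± 1.44 with erastin and miR-Exo, each over 3 libraries. The fitted rise with erastin was 43.3-fold under NPPC-Exo, a log2 change of 5.44 ± 0.37 (SE, adjusted p = 6.00e-08), and 1.18% of all genes had a larger log2 change. Under miR-Exo it was 168-fold, 7.39 ± 0.38 on the log2 scale (adjusted p = 3.11e-09), with 0.294% of all genes above it. In the presence of erastin Lcn2 was 4.60-fold higher under miR-Exo (log2 2.20 ± 0.27, adjusted p = 6.11e-05). Without erastin the difference was 0.25 ± 0.48 on the log2 scale (adjusted p = 0.800). The interaction was 1.95 ± 0.55 (adjusted p = 0.0367). That interaction call was lost in 10 of 22 alternative settings, among them DESeq2 (adjusted p = 0.0591) and 8 of the 12 omissions of a single library, up to an adjusted p of 0.133 without NPPC-Exo library 2, while the rise with erastin was called in every setting run. The NPPC-Exo and miR-Exo libraries numbered 1 held 20 and 18 counts beside 58 to 83 in the others of their groups. Over 10162 tested genes of higher mean level the same libraries had the highest scores, 0.591 and 0.412, on the first component of the within-group spread, which held 30.7% of it. The scores of the other 10 libraries ran from -0.367 (NPPC-Exo 3) to 0.306 (erastin+miR-Exo 3). Without the 4 libraries numbered 1 the interaction of Lcn2 was 1.71 (adjusted p = 0.00355).

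Hp encodes haptoglobin, the haemoglobin scavenger of plasma, and was the only one of the 9 genes not called with erastin under NPPC-Exo. Its counts were 82, 66 and 92 with NPPC-Exo and 31, 36 and 61 with miR-Exo. With erastin they were 99, 130 and 102 under NPPC-Exo and 214, 241 and 278 under miR-Exo. Without erastin the miR-Exo libraries were all below the NPPC-Exo libraries, and with erastin they were all above them. The erastin+NPPC-Exo counts all exceeded the NPPC-Exo counts, but the groups overlapped once scaled by TMM. Hp was 2.05-fold lower with miR-Exo than with NPPC-Exo when no erastin was given (log2 -1.04 ± 0.26, adjusted p = 0.0218). It was 2.12-fold higher with miR-Exo when erastin was given (log2 1.08 ± 0.24, adjusted p = 0.00418). Erastin raised Hp by 5.16-fold under miR-Exo (log2 2.37 ± 0.26, adjusted p = 5.17e-06). Under NPPC-Exo the change was 0.24 ± 0.25 and did not pass (adjusted p = 0.465). The interaction, 2.12 ± 0.35 (adjusted p = 0.00274), was the largest estimate among the 9 genes and was called in all 22 alternative settings. The call of a lower level with miR-Exo without erastin was lost in 6 settings, while its estimate stayed negative in all 24. With the replicate number as a block and only these 6 libraries it was -1.06 with an adjusted p of 0.102, and without the libraries numbered 1 it was -0.87 (adjusted p = 0.155). In FPKM the levels stayed low throughout, from 0.530 ± 0.171 with miR-Exo to 3.39 ± 0.518 with erastin and miR-Exo (SD, n = 3 each).

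C3 encodes the central complement component whose cleavage marks a surface for uptake and lysis. Its counts were 26, 39 and 16 with NPPC-Exo and 8, 37 and 34 with miR-Exo, so both groups held few counts and overlapped. With erastin they were 1063, 2067 and 1659 under NPPC-Exo and 4292, 4307 and 3965 under miR-Exo. Every erastin library lay far above every library without erastin, and the erastin groups did not overlap each other. C3 rose 49.9-fold with erastin under NPPC-Exo (log2 5.64 ± 0.34, adjusted p = 1.70e-08) and 142-fold under miR-Exo (log2 7.15 ± 0.35, adjusted p = 1.89e-09). These rises differed from those of Lcn2 by less than the standard errors of either gene. With erastin on both sides, it was 2.53-fold higher under miR-Exo (log2 1.34 ± 0.24, adjusted p = 0.000968). The interaction of 1.50 ± 0.52 did not pass (adjusted p = 0.0763). It passed where limma was run on log2(FPKM + 1), at an adjusted p of 0.00211, and on log2(FPKM + 0.1), at 0.0233. In FPKM, which corrects for the long transcript, C3 stood at 0.0767 ± 0.0404 with NPPC-Exo, 4.87 ± 1.34 with erastin and NPPC-Exo and 13.2 ± 0.310 with erastin and miR-Exo (SD, n = 3 each), well below Lcn2.

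Cfb, factor B, supplies the protease that joins C3b in the alternative pathway, and was the scarcest of the 9 genes. Its counts were 9, 9 and 20 with NPPC-Exo and 11, 9 and 10 with miR-Exo. Erastin libraries held 35, 32 and 48 counts under NPPC-Exo and 40, 75 and 53 under miR-Exo. Each erastin library exceeded each library without erastin. Only 1 of 3 libraries in each group without erastin reached the filter level of 0.163 CPM, so the gene was tested through its erastin libraries. The log2 change with erastin was 1.37 ± 0.49 under NPPC-Exo (adjusted p = 0.0386) and 2.31 ± 0.51 under miR-Exo (adjusted p = 0.00195). The call under NPPC-Exo was lost in 9 settings, including 6 of the 12 that leave out a single library, the fit of the compared groups alone (adjusted p = 0.0679) and the omission of the libraries numbered 1 (adjusted p = 0.182). Differences between the kinds of exosome did not pass with erastin (0.48 ± 0.47, adjusted p = 0.487) or without it (-0.46 ± 0.51, adjusted p = 0.637). The gene model of Cfb overlaps those of Nelfe, C2 and AABR07044390.1 in the table, so its few counts are uncertain. C2, the classical pathway protease beside it, did not pass with erastin under either exosome, at -0.12 ± 0.12 and -0.08 ± 0.12 on the log2 scale.

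C1r and C1s, the proteases that sit together in the first component of the classical pathway, had the smallest standard errors of the genes that rose. C1r stood at 17.00, 18.66 and 18.12 FPKM with NPPC-Exo and at 17.41, 18.81 and 18.02 FPKM with miR-Exo. With erastin it stood at 93.07, 97.34 and 99.07 FPKM under NPPC-Exo and at 145.95, 149.09 and 142.05 FPKM under miR-Exo. The groups without erastin interleaved, and the erastin groups were apart from them and from each other. C1r rose 4.44-fold under NPPC-Exo (log2 2.15 ± 0.05, adjusted p = 3.41e-12) and 6.56-fold under miR-Exo (log2 2.71 ± 0.05, adjusted p = 4.07e-13). C1s stood at 2.42, 2.35 and 2.21 FPKM with NPPC-Exo and 2.19, 2.52 and 2.74 FPKM with miR-Exo. It stood at 21.91, 26.13 and 25.39 FPKM with erastin and NPPC-Exo and at 50.80, 56.03 and 52.95 FPKM with erastin and miR-Exo. Its rise was larger than that of C1r, at 8.66-fold (log2 3.11 ± 0.09, adjusted p = 2.05e-11) and 17.4-fold (log2 4.12 ± 0.09, adjusted p = 1.79e-12). Between the erastin groups, miR-Exo libraries were higher by 0.49 ± 0.05 for C1r (adjusted p = 6.02e-06) and by 1.02 ± 0.08 for C1s (adjusted p = 1.45e-06) on the log2 scale. Without erastin the differences were -0.07 ± 0.05 for C1r (adjusted p = 0.402) and 0.01 ± 0.09 for C1s (adjusted p = 0.950). The interactions were 0.56 ± 0.07 for C1r (adjusted p = 0.000431) and 1.01 ± 0.12 for C1s (adjusted p = 0.000465), and both were called in all 22 alternative settings.

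Because both proteases are needed in the C1 complex, their ratio within a library was also computed from FPKM. C1r exceeded C1s by 7.72 ± 0.617 times with NPPC-Exo and 7.33 ± 0.696 times with miR-Exo, and by 3.96 ± 0.266 and 2.74 ± 0.117 times in the same order with erastin (SD, n = 3 each). The 6 libraries with erastin lay between 2.66 and 4.25, all below the 6 without it, between 6.58 and 8.20. Scale factors cancel in such a ratio, so it does not depend on how the libraries were scaled, although it does rest on the deposited gene lengths. An exact permutation test of 3 against 3 cannot go below a p of 0.1, and none was run on the ratios.

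**Figure D2:**
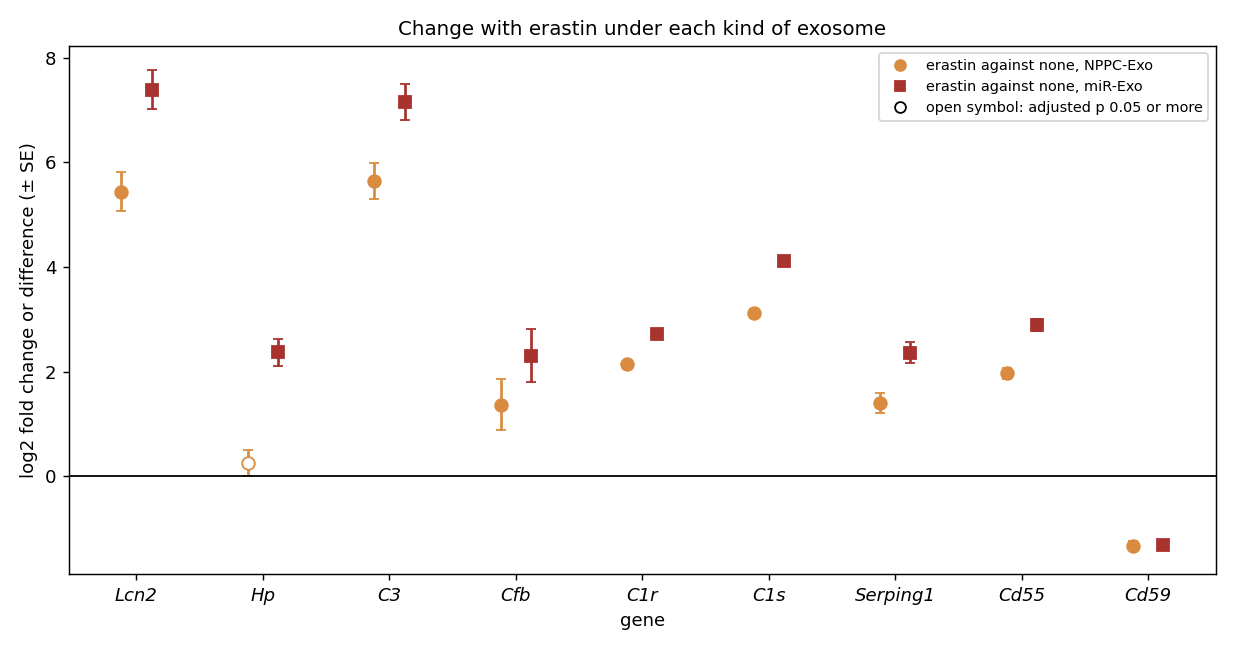
Log2 fold change with erastin (± SE) of each gene under NPPC-Exo (circles) and miR-Exo (squares) from the edgeR model of 12 libraries; open symbols did not pass the adjusted threshold of 0.05. Lcn2 and C3 reach 5.44 and 5.64 under NPPC-Exo and 7.39 and 7.15 under miR-Exo, Cd59 lies at -1.33 and -1.32, and only Hp under NPPC-Exo, at 0.24, is open.

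Serping1 encodes the C1 inhibitor, the serpin that inactivates C1r and C1s. Its counts were 90, 82 and 61 with NPPC-Exo and 83, 91 and 128 with miR-Exo. Erastin libraries held 220, 249 and 247 counts under NPPC-Exo and 693, 569 and 470 under miR-Exo. The erastin groups were apart from each other and from the groups without erastin, which overlapped. Serping1 rose 2.63-fold with erastin under NPPC-Exo (log2 1.40 ± 0.20, adjusted p = 6.16e-05) and 5.14-fold under miR-Exo (log2 2.36 ± 0.20, adjusted p = 3.93e-07). In the presence of erastin it was 2.31-fold higher with miR-Exo (log2 1.21 ± 0.19, adjusted p = 0.000341). Its interaction of 0.96 ± 0.27 (adjusted p = 0.0367) was lost in 12 of 22 settings. Among these were 9 of the 12 omissions of a single library, the fit without the libraries numbered 1, at 0.62 (adjusted p = 0.302), and, with the smallest estimate of the single omissions, the fit without erastin+miR-Exo library 1, at 0.79 (adjusted p = 0.110). The inhibitor rose by less than the protease C1s under both kinds of exosome. The FPKM ratio of C1s to Serping1 was 3.79 ± 0.623 with NPPC-Exo and 3.18 ± 0.232 with miR-Exo, and 12.1 ± 1.12 and 10.9 ± 2.13 in the same order with erastin (SD, n = 3 each). For C1r to Serping1 the ratio was 29.5 ± 6.75 with NPPC-Exo and 23.4 ± 3.78 with miR-Exo, and 47.9 ± 2.17 and 29.8 ± 4.79 with erastin. The erastin+miR-Exo libraries, at 24.6 to 34.0, overlapped the NPPC-Exo libraries, at 23.9 to 37.0, on the latter ratio.

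Cd55 and Cd59 are membrane-anchored regulators that help keep a cell's own surface from complement attack, and they moved in opposite directions. Cd55 stood at 3.08, 2.87 and 3.28 FPKM with NPPC-Exo and at 2.92, 3.88 and 2.91 FPKM with miR-Exo. With erastin it stood at 14.48, 15.75 and 13.51 FPKM under NPPC-Exo and at 30.07, 32.00 and 25.83 FPKM under miR-Exo. The groups without erastin overlapped, and every erastin+miR-Exo library exceeded every erastin+NPPC-Exo library. Cd55 rose 3.90-fold under NPPC-Exo (log2 1.96 ± 0.11, adjusted p = 1.02e-08) and 7.38-fold under miR-Exo (log2 2.88 ± 0.11, adjusted p = 2.71e-10). The interaction was 0.92 ± 0.15 (adjusted p = 0.00277) and was called in all 22 alternative settings. Cd59 stood at 26.25, 25.60 and 27.83 FPKM with NPPC-Exo and at 22.45, 25.10 and 24.23 FPKM with miR-Exo. With erastin it stood at 13.81, 11.98 and 12.61 FPKM under NPPC-Exo and at 10.58, 12.94 and 11.87 FPKM under miR-Exo, so that the erastin groups overlapped each other and lay below the groups without erastin. It fell 2.51-fold under NPPC-Exo (log2 -1.33 ± 0.09, adjusted p = 3.80e-08) and 2.49-fold under miR-Exo (log2 -1.32 ± 0.09, adjusted p = 3.71e-08). The interaction of Cd59 was 0.01 ± 0.12 (adjusted p = 0.970). The miR-Exo values were slightly lower than NPPC-Exo values without erastin (-0.23 ± 0.08, adjusted p = 0.105) and with it (-0.22 ± 0.09, adjusted p = 0.0710), and neither difference passed. The one with erastin passed in 4 of 23 alternatives, down to an adjusted p of 0.0259 without erastin+miR-Exo library 2. RefSeq's GRCr8 table names this gene's record Cd59b.

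Without erastin Cd59 had a higher level per length than Cd55, and with erastin Cd55 had the higher one. Cr1l, a membrane regulator outside this set, stood above both in every group. Its mean FPKM were 38.0 with NPPC-Exo, 32.45 with miR-Exo, 41.0 with erastin and NPPC-Exo and 36.8 with erastin and miR-Exo. The FPKM ratio of Cd59 to Cd55 was 8.64 ± 0.241 with NPPC-Exo and 7.49 ± 0.944 with miR-Exo. It was 0.883 ± 0.106 with erastin and NPPC-Exo and 0.405 ± 0.0539 with erastin and miR-Exo (SD, n = 3 each). The 6 libraries with erastin lay at 0.954 or below, and the 6 without it at 6.47 or above.

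**Figure D3:**
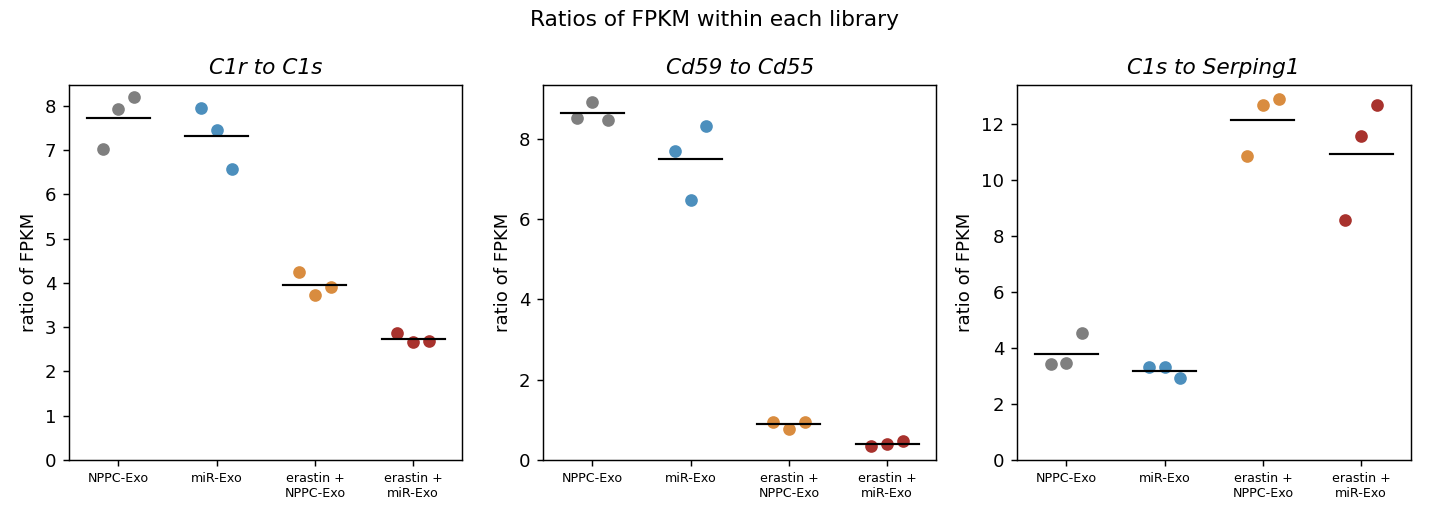
Ratio of FPKM within each library (linear axes from 0) for C1r to C1s, Cd59 to Cd55 and C1s to Serping1; points are libraries and bars are group means. The mean ratio of C1r to C1s goes from 7.72 to 3.96 and that of Cd59 to Cd55 from 8.64 to 0.883 with erastin under NPPC-Exo, while C1s to Serping1 goes from 3.79 to 12.1.

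The order of the 9 genes by FPKM changed with erastin. With NPPC-Exo alone the order was Cd59 at 26.6 ± 1.15, C1r at 17.9 ± 0.847, Cd55 at 3.08 ± 0.205, C1s at 2.33 ± 0.107, Hp at 1.03 ± 0.150, Lcn2 at 0.790 ± 0.410, Serping1 at 0.627 ± 0.119, C3 at 0.0767 ± 0.0404 and Cfb at 0.0367 ± 0.0208 (SD, n = 3 each). Hp, Lcn2 and Serping1 were neighbours within their spread, as were C3 and Cfb. With erastin and miR-Exo the order was Lcn2 at 208 ± 1.44, C1r at 146 ± 3.53, C1s at 53.3 ± 2.63, Cd55 at 29.3 ± 3.16, C3 at 13.2 ± 0.310, Cd59 at 11.8 ± 1.18, Serping1 at 4.99 ± 0.889, Hp at 3.39 ± 0.518 and Cfb at 0.193 ± 0.0551. There C3 and Cd59 were the nearest neighbours, and their libraries, at 12.84 to 13.40 and 10.58 to 12.94 FPKM, overlapped.

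**Figure D4:**
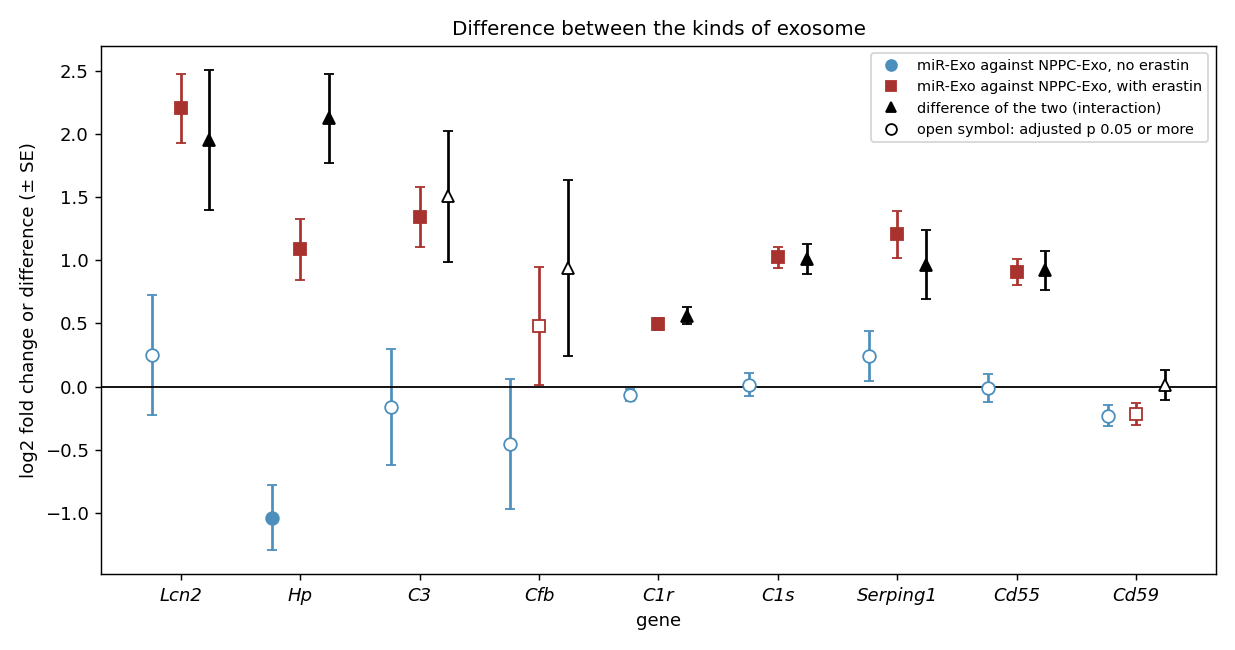
Log2 difference (± SE) of miR-Exo from NPPC-Exo without erastin (circles) and with erastin (squares), and the difference between these (triangles, the interaction), for each gene; open symbols did not pass. Without erastin only Hp, at -1.04, is filled; with erastin 7 genes are filled, from 0.49 for C1r to 2.20 for Lcn2.

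Other genes of complement, from lists written for this purpose, were tested in the same fit. A listed gene that reached the filter level in fewer than 3 of the 6 libraries without erastin, or of the 6 with it, could pass the filter through 1 side only, and counts without such genes follow each list. Of 15 other genes that start the classical and lectin pathways, 9 were in the table and 8 were tested. With erastin, 0 rose and 1 fell under NPPC-Exo, and 2 rose and 1 fell under miR-Exo, and the list's medians were 0.0063 and -0.0402. Without Colec10, Colec11 and C4b, 0 of 5 changed under NPPC-Exo and 2 rose under miR-Exo. C1rl, a protease related to C1r, changed by 0.07 ± 0.22 under NPPC-Exo (adjusted p = 0.836) and rose by 1.27 ± 0.21 under miR-Exo (adjusted p = 0.000260), with an interaction of 1.21 ± 0.30 (adjusted p = 0.0221). Of 9 genes of the alternative and terminal pathways, 7 were in the table and 3 were tested. With erastin 0 rose and 1 fell under NPPC-Exo and 1 rose and 0 fell under miR-Exo. The one that rose was C6, at 0 or few counts without erastin, and without it 0 of 2 changed under miR-Exo. The one that fell was C8g, a chain of the membrane attack complex, by 1.52 ± 0.34 on the log2 scale (adjusted p = 0.00245). C5, C7 and C9 held 26, 13 and 34 counts over all 12 libraries and were not tested. The genes for the C1q chains, C1qa, C1qb and C1qc, were among the 15 listed and were not found in the table under these symbols.

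Among 10 other complement regulators, 9 were in the table and 6 were tested, of which 1 rose and 1 fell with erastin under NPPC-Exo and 2 rose and 0 fell under miR-Exo. Their medians were 0.344 and 0.936. Without Susd4 and Cfi, 1 of 4 rose and 1 fell under NPPC-Exo, and 2 rose and 0 fell under miR-Exo. The medians were then 0.187 and 0.637. Clu, clusterin, a secreted inhibitor of the membrane attack complex, rose by 2.13 ± 0.06 (adjusted p = 1.68e-11) and 2.72 ± 0.06 (adjusted p = 1.63e-12), with an interaction of 0.60 ± 0.08 (adjusted p = 0.000901). At 260 ± 3.17 FPKM with erastin and miR-Exo, Clu stood above all 9 genes. The membrane regulator Cr1l fell by 0.17 ± 0.05 under NPPC-Exo (adjusted p = 0.0220), although its FPKM, without TMM scaling, were higher with erastin (41.0 ± 0.677 beside 38.0 ± 2.86, SD, n = 3 each). Of 10 complement receptors and binding proteins, 9 were in the table and 7 were tested, with 5 higher and 0 lower under NPPC-Exo and 6 higher and 0 lower under miR-Exo, and medians of 1.52 and 2.28. Without Itgb2, Itgam and Cr2, 4 of 4 rose under each kind of exosome, with medians of 1.72 and 1.53. Itgax, a subunit of a C3 fragment receptor, rose by 1.52 ± 0.22 (adjusted p = 8.33e-05) and 0.79 ± 0.21 (adjusted p = 0.00654). Cd93 rose by 2.57 ± 0.34 (adjusted p = 3.13e-05) and 2.28 ± 0.35 (adjusted p = 0.000133). Both stayed under 3 FPKM. Itgb2, the partner chain of Itgax, was at 0 counts without erastin. Taking 3 counts over the group as the limit of a count of 0, its pooled level with erastin was 14.3-fold and 17.3-fold above that limit. Such a fold leaves out the spread between the erastin libraries. Itgb2 was also at 0 counts in 1 of the 3 erastin+miR-Exo libraries.

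The other acute-phase genes included several large rises. Of 32 listed, 16 were in the table and 13 were tested. With erastin 7 rose and 0 fell under NPPC-Exo and 8 rose and 1 fell under miR-Exo, with medians of 1.01 and 1.49. Without Steap4, Rbp4, Itih4 and Fgg, 6 of 9 rose under each, and 0 and 1 fell, with medians of 0.856 and 1.49. With erastin on both sides, 5 were higher and 2 lower with miR-Exo, and the interaction was higher for 4 and lower for 1. Ptx3, a pentraxin that binds C1q, rose by 5.10 ± 0.24 (adjusted p = 1.94e-09) and 6.60 ± 0.27 (adjusted p = 3.48e-10). Lbp, the lipopolysaccharide-binding protein, rose by 2.08 ± 0.17 (adjusted p = 4.19e-07) and 3.44 ± 0.17 (adjusted p = 3.12e-09). Cp, the ferroxidase ceruloplasmin, was the only one of these to be higher with miR-Exo both without erastin (1.67 ± 0.09, adjusted p = 6.02e-07) and with it (2.52 ± 0.09, adjusted p = 3.29e-09). Hpx, haemopexin, which clears free haem as haptoglobin clears haemoglobin, changed by 0.21 ± 0.32 under NPPC-Exo (adjusted p = 0.633) and rose by 3.67 ± 0.33 under miR-Exo (adjusted p = 8.65e-07). Its interaction was 3.46 ± 0.45 (adjusted p = 0.000781). Hpx and Hp thus both passed with erastin under miR-Exo and not under NPPC-Exo, and both differences were tested by the interaction. Tf, transferrin, rose by 0.24 ± 0.07 under NPPC-Exo (adjusted p = 0.0140) and fell by 0.25 ± 0.07 under miR-Exo (adjusted p = 0.0120), a fall that FPKM do not show, at 10.3 ± 0.298 with miR-Exo and 10.7 ± 0.230 with erastin and miR-Exo (SD, n = 3 each).

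The cytokines, receptors and transcription factors that induce the acute phase formed a list of 24, all of which were tested. With erastin 14 rose and 3 fell under NPPC-Exo and 14 rose and 1 fell under miR-Exo, with medians of 0.828 and 1.05. Without Tnf, Il1b and Osm, 12 of 21 rose under each, and 3 and 0 fell, with medians of 0.570 and 0.965. Between the erastin groups, 9 were higher and 1 lower with miR-Exo. Il6, the main hepatic inducer, rose by 1.93 ± 0.13 (adjusted p = 6.90e-08) and 3.97 ± 0.14 (adjusted p = 1.06e-10), with an interaction of 2.04 ± 0.19 (adjusted p = 8.72e-05). Osmr, the oncostatin M receptor, changed by 0.13 ± 0.07 under NPPC-Exo (adjusted p = 0.152) and rose by 1.13 ± 0.07 under miR-Exo (adjusted p = 1.98e-08), with an interaction of 1.00 ± 0.10 (adjusted p = 0.000134). Nfkbiz, a nuclear IkB protein known to be needed for Lcn2 induction in other cells, rose by 2.12 ± 0.11 (adjusted p = 3.74e-09) and 2.63 ± 0.11 (adjusted p = 4.18e-10). Irf1, an interferon-induced factor, went the other way in its interaction, rising by 2.50 ± 0.10 (adjusted p = 5.18e-10) and 1.94 ± 0.10 (adjusted p = 3.54e-09) with an interaction of -0.55 ± 0.14 (adjusted p = 0.0217). Stat3, the factor that carries the IL-6 signal to acute-phase genes, fell by 0.36 ± 0.05 under NPPC-Exo (adjusted p = 5.94e-05) and changed by 0.03 ± 0.05 under miR-Exo (adjusted p = 0.697), with an interaction of 0.39 ± 0.07 (adjusted p = 0.00484). The FPKM of Stat3, which lack the TMM scaling, were 38.6 ± 1.27 with NPPC-Exo and 36.4 ± 0.828 with erastin and NPPC-Exo (SD, n = 3 each). Under miR-Exo they were higher with erastin, at 59.18 to 59.51 beside 45.12 to 48.79 without it. Il1b, named after its values were seen, was at 0 counts in the 6 libraries without erastin. With erastin its pooled level was 21.2-fold above the same limit under NPPC-Exo and 73.0-fold above it under miR-Exo. Of the 4 tested partners of lipocalin-2 and haptoglobin (5 listed), 1 rose and 2 fell under each kind of exosome. Mmp9, the protease that lipocalin-2 binds, rose by 5.94 ± 0.21 (adjusted p = 9.85e-11) and 5.71 ± 0.21 (adjusted p = 1.20e-10). Slc22a17, a lipocalin-2 receptor, fell by 0.57 ± 0.16 (adjusted p = 0.0119) and by 0.58 ± 0.17 (adjusted p = 0.0102), the latter with FPKM that overlap (3.35 to 4.36 with miR-Exo, 2.35 to 3.74 with erastin and miR-Exo). Hmox1, haem oxygenase 1, fell by 0.34 ± 0.08 (adjusted p = 0.00361) and by 0.93 ± 0.08 (adjusted p = 6.00e-07). Under NPPC-Exo the FPKM of Hmox1, which lack the TMM scaling, overlapped, at 72.94 to 86.76 without erastin and 69.03 to 81.58 with it.

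**Figure D5:**
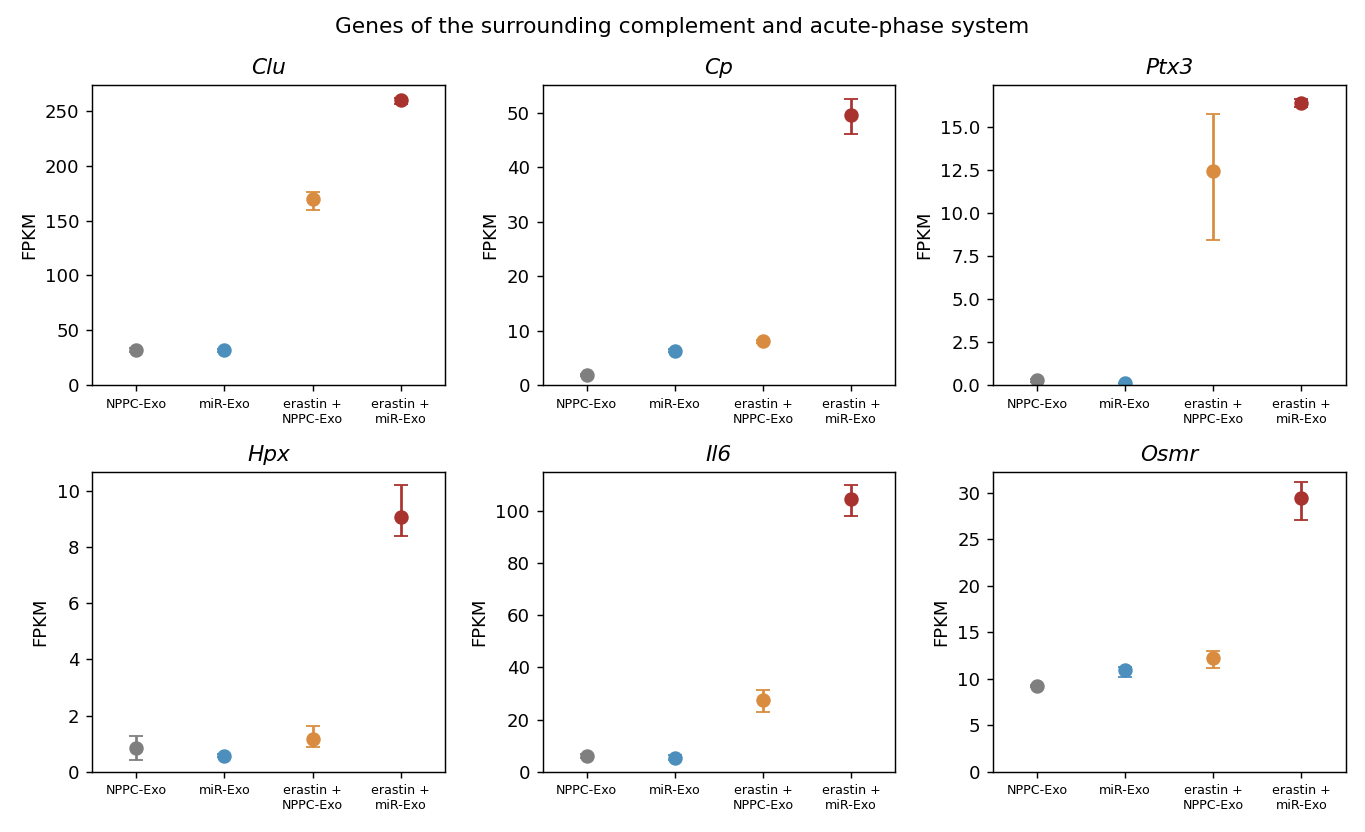
FPKM (linear axes from 0) of 6 genes of the surrounding system in the 4 groups; points are means of 3 libraries and bars run from the lowest to the highest library. Hpx is at 9.07 FPKM with erastin and miR-Exo and at 1.18 or less in the other groups, and Clu is at 170 and 260 FPKM with erastin beside 32.1 FPKM in both groups without it.

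Over the 12 libraries the log2 CPM of most of the 9 genes ran together, and the 12 points share the 4 groups, depth and scaling. Pearson's r was 0.997 between C1r and C1s and 0.989 between Lcn2 and C3, and Cd59 ran against the others, from -0.727 with Hp to -0.982 with C1r. Taken as deviations from the group means, the r of C1r and C1s was 0.281 and that of Lcn2 and C3 was 0.732, over the same 12 libraries. Among 12516 genes with a mean of at least 1 CPM, the 3 most like each gene were listed by r. Clu was nearest to both C1r (r = 0.998) and C1s (0.998), followed for C1r by Nasp and Cyp7b1 (0.997 each) and for C1s by C1r and Cyp1b1 (0.997 each). For C3 they were Fgfr1op (0.996), Rassf6 (0.995) and Gbp2 (0.994), and for Lcn2 Hspd1 (0.995), Kpna3 (0.994) and Ppp1cc (0.993). Serping1 was nearest to Map3k8, Pappa1 and Lbp (0.989 each), Cd55 to Cd47 (0.996), Birc2 (0.994) and Enpp2 (0.993), and Cd59 to Cnksr3 (0.996), Afap1l2 and Fdps (0.995 each). Hp had lower values, with Elp2 (0.966), Uap1 (0.957) and Litaf (0.956), as had Cfb with Nudt5 (0.974), Msh6 (0.966) and Map2k1 (0.965). As deviations from the group means, the r of these listed pairs ran from -0.0478 (Clu with C1r) to 0.918 (Gbp2 with C3). For Clu with C1s it was 0.626.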

How the data were processed

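Total RNA of the 12 samples was isolated with TRIzol and made into libraries with dUTP in the second strand, per the labels' protocols. StringTie and the rat build mRatBN7.2 are named in the submitters' processing notes, without a version. The sources used here name no aligner or annotation release and do not say whether counting used the strand. The authors deposited 1 table of 21071 genes with a read count and an FPKM for each library. Of the counts from 1 to 20, 57.3% were even, and a setting with counts divided by 2 was run for this reason. Gene positions of the table were used only to find overlapping gene models, since their build was uncertain, and coordinates printed are those of RefSeq on GRCr8.

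Columns were matched to samples by name, and groups were taken from the titles. With edgeR 4.0.16 in R 4.3.3, filterByExpr kept 15650 genes, TMM factors ran from 0.877 to 1.15, and quasi-likelihood models with 4 group means shared 1 estimate of spread over all 12 libraries. A count of 0 allows up to 0.0440 to 0.0565 CPM (3 counts), which covers counting error only. Each comparison was adjusted by Benjamini-Hochberg over all genes tested. Alternatives were other scaling, filters, DESeq2 1.42.0, limma 3.58.1 on log2(FPKM + 1) and log2(FPKM + 0.1), halved counts, the omission of each library in turn, a replicate block, and fits of the compared groups alone. Leaving out the libraries numbered 1, and the block on the compared groups alone, were added after seeing the data. No libraries were duplicates: the smallest SD of log2 CPM ratios between any pair was 0.191.

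Same-numbered NPPC-Exo and miR-Exo libraries without erastin deviated together from their group means (r = 0.408, 0.222 and 0.130 over 10162 genes). Between different numbers r ran from -0.327 (NPPC-Exo 1 with miR-Exo 2) to 0.209 (NPPC-Exo 3 with miR-Exo 2). The latter is above the 0.130 of the libraries numbered 3. The numbers were taken to pair these libraries, from the data and not from a label. In the other comparisons the numbers were not taken to pair libraries. Between the erastin groups the r of libraries 1 to 3 was 0.0785, -0.0180 and 0.190. Between libraries with and without erastin it was -0.176, -0.0297 and -0.0937 under NPPC-Exo. Under miR-Exo it was -0.0033, 0.0184 and -0.231. The main fits did not use the pairing, and the replicate block was run as an alternative. The 9 genes and the gene and marker lists were chosen with earlier results of these data known. A gene of these lists is not reported here and is in none of their counts. Besides the 9, a list's genes were named where they were among the 6 of smallest adjusted p in the comparison described, and for each of the 9 the 3 genes of highest r.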

Additional observations from a re-analysis of the deposited data

Results flagged for a closer look

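For 6 of the 9 genes the erastin effect under miR-Exo differed from that under NPPC-Exo by a test of the difference itself, the interaction term in edgeR. The effect was larger under miR-Exo in each. On the log2 scale the difference was 2.12 for Hp, 1.95 for Lcn2, 1.01 for C1s, 0.96 for Serping1, 0.92 for Cd55 and 0.56 for C1r. For Hp the groups changed order, with all 3 miR-Exo libraries below the NPPC-Exo libraries without erastin and all 3 above them with it. For C1r, C1s and Cd55 the groups without erastin overlapped, and the groups with erastin did not. The calls for Lcn2 and Serping1 had an adjusted p of 0.0367 each and were lost in 10 and 12 of the 22 alternatives. Groups of 3 libraries are too small for a test of single outlying libraries.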

How the results depend on the processing

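Of 1028 re-computed values of the 9 genes, 959 kept their direction and side of the threshold, 37 lost a call, 7 gained one and 25 changed sign, all of the latter in values that had not passed. The rises of Lcn2, C3, C1r, C1s, Serping1 and Cd55 with erastin and the fall of Cd59 were called in every setting under both kinds of exosome. Cfb fell below the filter of 1 CPM and has no value there. It also missed the filter, and has no value, in the fits of the groups without erastin alone, with or without the replicate block. Without the libraries numbered 1, genes called between the kinds of exosome without erastin went from 1669 to 1015 and for the interaction from 2006 to 1164. Leaving out 1 library at a time gave 970 to 1854 and 1205 to 2419 genes. The count of the 9 called without erastin (1, Hp) was 0 with only the groups compared, with that and the replicate block, and without the libraries numbered 1, and 0 to 1 with 1 library left out. Without NPPC-Exo library 3, miR-Exo library 1 or miR-Exo library 2, Hp was at adjusted p of 0.0680, 0.0787 and 0.0767. The replicate block on all 12 libraries ended the calls of Cfb with erastin under NPPC-Exo (log2 1.41, adjusted p = 0.0537) and of the Serping1 interaction (0.94, adjusted p = 0.0575) and changed no other call of the 9. It gave 6720, 7596, 1560, 4847 and 1928 calls over all genes in the 5 comparisons, against 6816, 7687, 1669, 4906 and 2006 without it. In no comparison did every library correlate best with its own number.

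Differences of miR-Exo from NPPC-Exo without erastin changed sign for C1r with library size alone (0.0144), log2(FPKM + 0.1) (0.0126) and log2(FPKM + 1) (0.0120), and for Cd55 in the same settings (0.0708, 0.0602 and 0.0488) and without the libraries numbered 1 (0.0427). For C3 the sign changed without the libraries numbered 1 (0.200). With 1 library left out the ranges were -0.123 to 0.668 for Lcn2, -0.518 to 0.249 for C3, -0.659 to 0.0229 for Cfb, -0.0671 to 0.0878 for C1s and -0.143 to 0.0538 for Cd55. For the Cd59 interaction the range was -0.0872 to 0.0544, and with no filter it was -0.0011. The cause was not tested. Library size alone moved the median log2 change of all genes from 0.0175 to 0.300 under NPPC-Exo and from 0.0287 to 0.334 under miR-Exo, and the share of calls that were higher from 49.3% to 77.8% and from 50.4% to 76.4%. With erastin on both sides it moved that share from 49.7% to 68.6%, and without erastin, between the kinds of exosome, from 38.9% (649 higher, 1020 lower) to 68.7% (1264 higher, 576 lower). Limma on log2(FPKM + 1) called Hp with erastin under NPPC-Exo (adjusted p = 0.0472), and the lower Cd59 with miR-Exo under erastin was called by DESeq2 (adjusted p = 0.0438), with the filter of 1 CPM (0.0458) and without library 2 of erastin+miR-Exo (0.0259) or of erastin+NPPC-Exo (0.0354). Depth limits Cfb, C3 and Lcn2 without erastin, where counts were 8 to 83.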

Other observations

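Further receptors and inducers beside the 9 genes changed with erastin. Il1r1, the IL-1 receptor, rose by 0.90 ± 0.06 under NPPC-Exo (edgeR, adjusted p = 5.72e-08) and 1.62 ± 0.06 under miR-Exo (adjusted p = 2.20e-10) on the log2 scale. Without erastin it was lower with miR-Exo, by -0.78 ± 0.06 (adjusted p = 8.18e-06), and with erastin the difference was -0.06 ± 0.06 (adjusted p = 0.480). Its interaction was 0.71 ± 0.09 (adjusted p = 0.000505). Ifngr1, an interferon gamma receptor chain, rose by 1.75 ± 0.06 (adjusted p = 1.39e-10) and 1.82 ± 0.06 (adjusted p = 8.38e-11), and its interaction of 0.07 ± 0.09 did not pass (adjusted p = 0.675). Lif, a cytokine of the IL-6 family, rose by 1.34 ± 0.11 (adjusted p = 3.73e-07) and 2.01 ± 0.11 (adjusted p = 7.64e-09), with an interaction of 0.66 ± 0.15 (adjusted p = 0.0147). Cd14, which receives lipopolysaccharide from Lbp, rose by 0.86 ± 0.16 (adjusted p = 0.000539) and 1.49 ± 0.16 (adjusted p = 3.56e-06). Csmd1, a membrane regulator of complement, was higher with miR-Exo without erastin (1.63 ± 0.33, adjusted p = 0.00660) and with it (2.47 ± 0.32, adjusted p = 9.94e-05), at no more than 0.590 FPKM in any library.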
